A study of Mus musculus with 6 samples.

Results

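The genes described here are 10 genes of the atypical protein kinase C (aPKC) and cell polarity machinery, Prkcz, Prkci, Pard3, Pard6b, Pard6g, Sqstm1, Llgl2, Crb3, Mark2 and Stk11. They were taken by symbol from a deposited table of 45777 genes, and all 10 were among the 18456 genes with enough reads to be tested. The study measured total RNA from the small intestine of mice in 6 libraries. The control group is 3 libraries titled DIO-GFP (replicates 1-1, 1-4 and 3-1), and the other group is 3 libraries titled DIO-zeta and labelled PKCzeta overexpression (replicates 2-1, 4-1 and 4-2). They are called the control set (GFP label) and the zeta set (PKCzeta label) here. The stated question is which genes respond to overexpression of PRKCZ, the gene for PKCzeta. Strain, age, sex, diet, the segment of intestine, the way in which GFP or PKCzeta was delivered and the meaning of DIO are not given in the sources used here. Nothing says outright that each library comes from its own animal, so p-values here describe the spread between these libraries, which may be technical.

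Epithelial cells keep an apical and a basolateral side through protein complexes that exclude each other. At the apical side an aPKC, either zeta (Prkcz) or iota (Prkci), binds a PAR6 adaptor through PB1 domains, PAR3 anchors the pair near the tight junction, and the membrane protein CRB3 recruits PAR6 further up. The kinase phosphorylates LGL and PAR-1 (MARK) proteins and so holds them at the basolateral membrane, while LKB1, the product of Stk11, activates PAR-1. The autophagy receptor p62, the product of Sqstm1, also binds aPKC through a PB1 domain and links it to NF-kB signalling.

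Total counts ran from 77573133 to 93742978 per library. Levels are given as CPM (reads scaled to library size after TMM) to compare libraries for a gene, or as the deposited TPM (scaled by transcript length) to compare genes. The share of the TPM sum in protein-coding rows ran from 53.0% to 71.1% and was highest in GFP replicate 1-4 (70.2%) and PKCzeta replicate 4-2 (71.1%), and 5 structured RNAs (Rn7s1, Rn7s2, Rn7sk, Rpph1 and Rmrp) held 24.5% to 41.0% of it. The tissue label was checked against marker genes. All 12 enterocyte markers had reads, with a summed level of 44775 to 56102 CPM in the control set and 17550 to 37273 CPM in the zeta set. The 10 markers of epithelium in general summed to 13667 to 17815 CPM and 13011 to 14158 CPM in the same order. The 7 pancreas markers summed to 3.75 to 4.99 CPM, with 2 of 7 at 0 in all libraries, and liver markers at 6.23 to 9.43 CPM.

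The sequences shown next are the 250 bases before annotated starts of Prkcz, the gene named in the label, of its paralog Prkci, and of Pard6b and Mark2, the members with the smallest p. They come from RefSeq on GRCm38.p6, the assembly of the mm10 files, where 8 of the 10 members had an entry, and they read 5′ to 3′ on the gene's strand. Capitals mark the GC box GGGCGG and the E-box CAGGTG, each searched on both strands (CCGCCC and CACCTG on the other).
Prkcz, outermost start, chr4:155361429-155361678, minus strand: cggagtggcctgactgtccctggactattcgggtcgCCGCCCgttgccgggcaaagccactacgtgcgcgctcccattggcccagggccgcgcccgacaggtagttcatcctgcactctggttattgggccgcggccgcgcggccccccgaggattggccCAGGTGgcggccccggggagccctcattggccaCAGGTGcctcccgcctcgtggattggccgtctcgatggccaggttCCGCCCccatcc
Prkcz, internal start, chr4:155345790-155346039, minus strand: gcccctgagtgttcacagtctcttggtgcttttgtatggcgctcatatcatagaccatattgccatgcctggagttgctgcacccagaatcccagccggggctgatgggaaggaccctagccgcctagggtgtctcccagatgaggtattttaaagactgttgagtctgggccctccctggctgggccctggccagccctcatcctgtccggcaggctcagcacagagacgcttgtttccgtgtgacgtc
Prkci, chr3:30995521-30995770, plus strand: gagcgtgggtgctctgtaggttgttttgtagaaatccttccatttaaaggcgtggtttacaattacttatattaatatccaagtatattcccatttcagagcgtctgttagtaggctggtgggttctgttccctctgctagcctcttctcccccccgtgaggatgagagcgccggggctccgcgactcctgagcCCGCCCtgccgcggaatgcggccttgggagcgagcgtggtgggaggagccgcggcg
Pard6b, chr2:168080754-168081003, plus strand: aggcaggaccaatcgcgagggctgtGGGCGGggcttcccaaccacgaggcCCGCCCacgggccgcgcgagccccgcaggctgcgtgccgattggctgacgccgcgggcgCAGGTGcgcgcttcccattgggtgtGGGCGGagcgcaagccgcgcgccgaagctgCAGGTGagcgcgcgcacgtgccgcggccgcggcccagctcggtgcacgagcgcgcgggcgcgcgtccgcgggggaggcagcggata
Mark2, outermost start, chr19:7341861-7342110, minus strand: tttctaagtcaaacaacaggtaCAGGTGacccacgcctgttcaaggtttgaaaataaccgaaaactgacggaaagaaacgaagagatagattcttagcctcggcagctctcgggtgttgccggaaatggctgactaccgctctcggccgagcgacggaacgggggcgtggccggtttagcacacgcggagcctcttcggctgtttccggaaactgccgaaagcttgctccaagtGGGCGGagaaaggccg

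A GC box stood in 32.7% and the E-box in 17.2% of the 32851 windows of this length in the RefSeq promoter table. The outermost Prkcz window held 2 GC boxes and 2 E-boxes with 25 CG dinucleotides, while the window of the internal start shown held 0 of either motif and 7 CG. Another internal Prkcz start, not printed, had 2 GC boxes, 1 E-box and 10 CG, so the windows of the internal starts are not alike. Bases shortly after each start were looked for in GENCODE transcripts of Prkcz, a separate annotation. They were found for both internal starts but not for the outermost one. Prkci had 1 GC box, 0 E-boxes and 17 CG. Its window ends at 30995770, past the gene start of 30995742 given below, so its last bases lie inside the annotated gene. Pard6b had 3 GC boxes, 2 E-boxes and 43 CG, more CG than 99.3% of all windows, where the median was 6. Mark2 had 1 of each motif and 22 CG. These matches describe letters only. As background, an internal Prkcz start gives PKMzeta, a form without the regulatory domain that is known from brain, and the gene counts do not tell which start a read came from.

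The first comparison is that of the targeted gene itself. Prkcz did not separate the groups. Prkcz (Entrez 18762, chromosome 4 from 155260118 to 155361428) stood at 70.5, 98.6 and 96.9 CPM in GFP replicates 1-1, 1-4 and 3-1, then 82.5, 100.1 and 57.0 CPM in PKCzeta replicates 2-1, 4-1 and 4-2. The highest and the lowest of the 6 values were both in zeta libraries, so the GFP range lay inside the PKCzeta range. Group means were 88.7 ± 15.8 and 79.9 ± 21.6 CPM (SD, n = 3 each), with a log2 ratio (the log2 fold change, zeta minus control, fitted by edgeR) of -0.15 (SE 0.24, 95% limits -0.69 to 0.39) and an adjusted p of 0.950 by the quasi-likelihood F test of edgeR. An exact two-sided permutation test gave p = 0.7, where 3 libraries against 3 can give no less than 0.1. Leaving out PKCzeta replicate 4-2 turned the log2 ratio to 0.047. The count of the mouse Prkcz gene was thus not measurably higher under the overexpression label, and every direction given here is one between labels. Whether reads of an introduced PKCzeta construct would be counted in that gene was not tested.

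The transcript length behind the deposited Prkcz values varied little between libraries. The count divided by FPKM, scaled to the library, varied 1.003-fold between the highest and lowest library for Prkcz and 1.005-fold for Prkci, against a median of 1.01-fold over 13786 genes. It varied more for Pard3 (1.06-fold) and Stk11 (1.10-fold), with overlapping values in both sets. For Pard6g it varied 1.02-fold, and there alone among the 10 genes the sets did not overlap (3.41 to 3.465 kb in the control set and 3.468 to 3.471 kb in the zeta set). The gap, from 3.465 to 3.468 kb, was narrow. The share of the 13786 genes without overlap on this measure was not computed, so no difference in Pard6g length is read from it.

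Prkci (Entrez 18759, chromosome 3 from 30995742 to 31052740), the other aPKC, was among the steadiest of the 10 genes. It stood at 55.7, 54.4 and 55.9 CPM in the control set and at 49.1, 53.5 and 62.1 CPM in the zeta set. All 3 GFP values lay between the lowest and the highest PKCzeta value, and the highest Prkci value was in PKCzeta replicate 4-2, the library with the lowest Prkcz value. Group means were 55.3 ± 0.774 and 54.9 ± 6.60 CPM (SD, n = 3 per set), for a log2 ratio of -0.012 (SE 0.15, 95% limits -0.35 to 0.33) with an edgeR adjusted p of 0.993.

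On the TPM scale Prkcz supplied most aPKC mRNA in 5 of 6 libraries. Its share of the summed Prkcz and Prkci TPM was 56.7%, 65.2% and 64.3% in the control set and 63.6%, 66.0% and 48.8% in the zeta set. PKCzeta replicate 4-2 was therefore the library in which Prkci exceeded Prkcz. The group shares were 62.1% ± 4.69 and 59.5% ± 9.34 (SD, n = 3 each). The log2 difference of the Prkcz to Prkci ratio was -0.15, with an exact two-sided permutation p of 0.8 (0.8 after adjustment over 5 paralog ratios), and it was 0.17 without PKCzeta replicate 4-2.

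**Figure D1:**
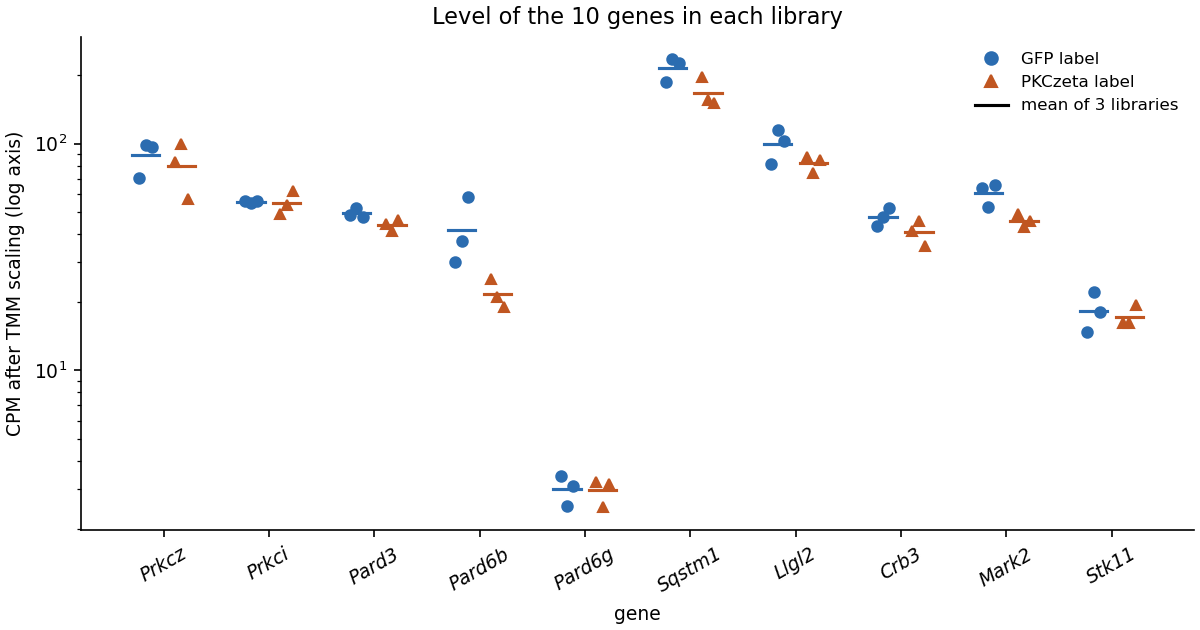
CPM after TMM scaling (log axis) of the 10 genes, with a point per library and a bar at the mean of 3 libraries of each label. Prkcz values of the GFP label lie within those of the PKCzeta label, while those of Pard6b, Mark2 and Pard3 do not overlap.

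Pard6b, the PAR6 adaptor with the highest level here, gave the greatest difference of the 10. Pard6b (Entrez 58220, chromosome 2 from 168081004 to 168101203) stood at 29.98, 37.2 and 58.2 CPM in the control set and at 25.4, 21.0 and 19.0 CPM in the zeta set. All 3 control libraries were above all 3 zeta ones, and GFP replicate 3-1 stood well above the rest. Group means were 41.8 ± 14.6 and 21.8 ± 3.25 CPM (SD, n = 3 each). EdgeR's log2 ratio was -0.94 (SE 0.26, 95% limits -1.54 to -0.33), with an unadjusted p of 0.00721 and an adjusted p of 0.858 by the quasi-likelihood F test of edgeR, which does not pass 0.05. Its exact permutation p was 0.1, the least that this design allows. Without GFP replicate 3-1 the log2 ratio was -0.62, and with the epithelial marker score as a covariate it was -0.59.

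The other PAR6 genes had overlapping groups, and the ratio given last cannot decide whether they differ from Pard6b. Pard6g (Entrez 93737) had the lowest TPM of the 10, and in CPM it stood at 3.40, 2.53 and 3.09 CPM in the control set and 3.23, 2.48 and 3.14 CPM in the zeta set. These values overlapped throughout, with a log2 ratio of -0.026 (SE 0.26, 95% limits -0.63 to 0.58, edgeR adjusted p 0.991). Pard6a, a family member outside the 10, had means of 0.901 ± 0.0632 and 1.21 ± 0.310 CPM (SD, n = 3 each; log2 ratio 0.42, SE 0.33, edgeR adjusted p 0.917). By TPM, Pard6b made up 87.4% ± 3.63 of PAR6 mRNA in the control set and 77.1% ± 4.55 in the zeta set (SD, n = 3 each). The Pard6b to Pard6g ratio was 8.15, 13.6 and 17.2 against 7.28, 7.83 and 5.62, with no overlap, an exact permutation p of 0.1 and 0.25 after adjustment over the 5 ratios. This ratio was added after the data were seen, and its exact p cannot go below 0.1. How many other gene pairs lack overlap was not computed. A ratio within a library does not depend on how libraries are scaled.

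Pard3, the scaffold that anchors aPKC and PAR6, had a small difference. Pard3 (Entrez 93742, chromosome 8 from 127063381 to 127612286) stood at 48.4, 52.0 and 47.2 CPM in the control set and 44.2, 41.1 and 46.0 CPM in the zeta set. The groups did not overlap, with a gap between 46.0 and 47.2 CPM. The log2 ratio was -0.17 (SE 0.14, 95% limits -0.49 to 0.15, edgeR adjusted p 0.917). Its paralog Pard3b held 28.9% ± 3.58 of PAR3 TPM in the control set and 30.2% ± 1.47 in the zeta set (SD, n = 3 each), and the Pard3 to Pard3b ratio had an exact permutation p of 0.6 (0.75 adjusted over the 5 ratios). Lowly counted lncRNA genes overlap Pard3, of which the most counted, Gm51558, had 5.42% of its mean count.

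Crb3 (Entrez 224912, chromosome 17 from 57062201 to 57065918), the apical membrane protein that recruits PAR6, overlapped between the groups. Its values were 43.4, 47.3 and 52.2 CPM in the control set and 41.1, 45.6 and 35.3 CPM in the zeta set. The lowest value was in PKCzeta replicate 4-2, and PKCzeta replicate 4-1 lay inside the GFP range. The log2 ratio was -0.23 (SE 0.16, 95% limits -0.60 to 0.15, edgeR adjusted p 0.917), and on log2(TPM + 1) it was -0.0036.

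Mark2, a PAR-1 kinase of the basolateral side, was the other gene with a small unadjusted p. Mark2 (Entrez 13728, chromosome 19 from 7275396 to 7341860) stood at 63.9, 52.5 and 65.3 CPM in the control set and 48.9, 42.7 and 45.5 CPM in the zeta set. The lowest GFP value was above the highest PKCzeta value. Group means were 60.6 ± 7.04 and 45.7 ± 3.14 CPM (SD, n = 3 per set), for a log2 ratio of -0.41 (SE 0.15, 95% limits -0.76 to -0.052) with an unadjusted p of 0.0296 and an adjusted p of 0.875 in edgeR. Mark3, its most abundant paralog, had a log2 ratio of 0.0097 (SE 0.14). The Mark2 to Mark3 TPM ratio was 0.714, 0.544 and 0.694 against 0.526, 0.470 and 0.462, again without overlap (exact permutation p = 0.1, adjusted over the 5 ratios 0.25). It too was added after the data were seen and cannot decide whether the paralogs differ. Mark2 made up 36.5% ± 3.23 of MARK TPM in the control set and 30.4% ± 1.34 in the zeta set (SD, n = 3 each).

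Stk11 (Entrez 20869, chromosome 10 from 80115767 to 80130679), which encodes the kinase LKB1 upstream of the MARK family, stood at 14.7, 22.2 and 18.05 CPM in the control set and 16.1, 16.2 and 19.4 CPM in the zeta set. All PKCzeta values lay within the GFP range. The log2 ratio was -0.091 (SE 0.21, 95% limits -0.57 to 0.39, edgeR adjusted p 0.965). The protein-coding gene Cbarp overlaps Stk11 and had 5.23% of its mean count, and the labels do not state the strand setting of the counting.

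Llgl2 (Entrez 217325, chromosome 11 from 115824029 to 115855780), the LGL protein of epithelia and a substrate of aPKC, stood at 80.9, 115.3 and 102.5 CPM in the control set and 87.6, 74.3 and 84.2 CPM in the zeta set. Only GFP replicate 1-1 of the control libraries lay inside the PKCzeta range. The log2 ratio was -0.28 (SE 0.17, 95% limits -0.68 to 0.12, edgeR adjusted p 0.917). Llgl2 held 90.7% ± 1.13 and 89.7% ± 0.582 of the LGL family TPM (SD, n = 3 each), the rest being Llgl1, and the Llgl2 to Llgl1 ratio had an exact permutation p of 0.3 (0.5 adjusted over the 5 ratios).

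Sqstm1 (Entrez 18412, chromosome 11 from 50200152 to 50210820), the gene for p62, had the highest TPM of the 10. It stood at 186, 236 and 226 CPM in the control set and 196, 156 and 151 CPM in the zeta set. The values of PKCzeta replicates 4-1 and 4-2 lay below the GFP range and that of replicate 2-1 lay within it. The log2 ratio was -0.36 (SE 0.17, 95% limits -0.76 to 0.035), with an edgeR adjusted p of 0.917.

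**Figure D2:**
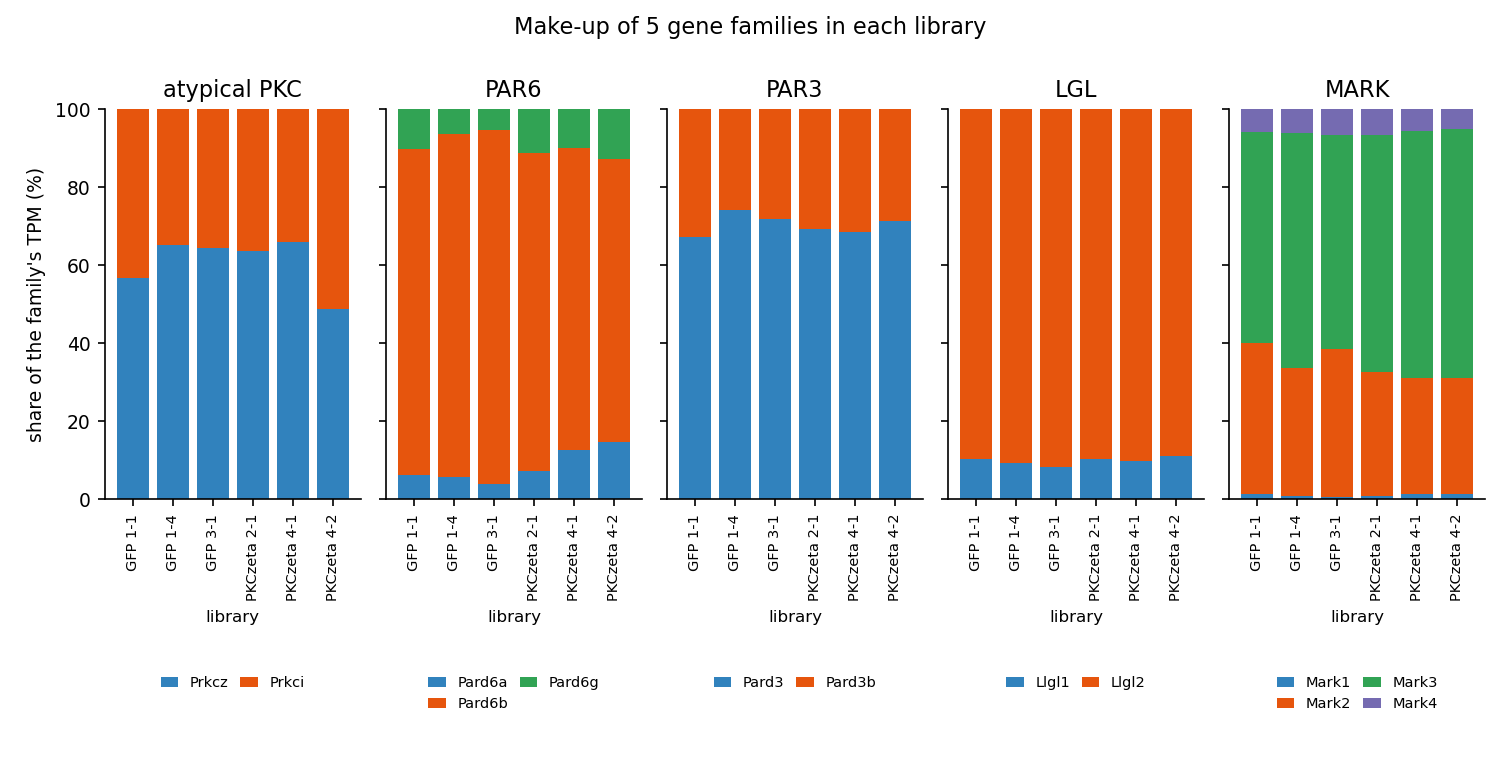
Share of the TPM of each family (%, y axis) that each gene holds in each of the 6 libraries (x axis), for the aPKC, PAR6, PAR3, LGL and MARK genes. The Pard6b share is at most 81.5% in the zeta libraries and at least 83.6% in the control ones, a narrow gap. The Prkcz share is lowest in PKCzeta replicate 4-2 at 48.8%.

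Levels per transcript length spread widely over the group. By the mean TPM of the 6 libraries the order was Sqstm1 (122), Crb3 (50.9), Llgl2 (32.5), Prkcz (24.8), Prkci (16.0), Mark2 (15.1), Pard6b (11.5), Pard3 (11.3), Stk11 (8.50) and Pard6g (1.21). Sqstm1 lay above Crb3, Crb3 above Llgl2 and Stk11 above Pard6g in 6 of 6 libraries with no overlap of their ranges. The ranges of all other neighbours in this order overlapped. Prkcz exceeded Prkci in 5 of 6 libraries, Prkci exceeded Mark2 in 3 of 6 and Pard6b exceeded Pard3 in 2 of 6. Within each set the first 4 and the last of the 10 kept their places, while Prkci and Mark2 changed order. Pard6b went from place 7 in the control set (14.3 ± 4.10 TPM, SD, n = 3) to place 9 in the zeta set (8.75 ± 0.286 TPM, SD, n = 3), below Pard3 and Stk11. Its place beside Stk11 in the zeta set (8.78 ± 1.79 TPM, SD, n = 3) was nearly a tie. In PKCzeta replicates 2-1, 4-1 and 4-2 Pard6b had 8.88, 8.43 and 8.95 TPM and Stk11 had 7.29, 8.28 and 10.8 TPM. Pard6g lay at the 34.3rd percentile of tested genes against the 96.1st for Sqstm1.

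Read as a group, 0 of the 10 genes passed an adjusted p of 0.05 in edgeR, where 0% of all 18456 tested genes did (0 genes, against 83 in DESeq2, none of them among the 10). At an unadjusted p under 0.05 in edgeR 2 of 10 were lower in the zeta set (background 3.07%) and 0 of 10 were higher (background 2.41%). The groups did not overlap in CPM for 3 of 10 genes, all lower (background 5.66% lower and 4.72% higher). All 10 log2 ratios were below 0, with a median of -0.20, where 45.7% of all tested genes were below 0 and their median was 0.035 (21.7% and 0.14 on log2(TPM + 1)). The genes were chosen with earlier results of these data known, so these counts describe them and are no evidence of a direction. The direction also rests on the scale. On log2(TPM + 1) 5 of 10 were below 0, with a median of 0.022. Prkcz was then at 0.053, Prkci at 0.19, Pard3 at 0.047, Pard6g at 0.11 and Stk11 at 0.093, and of these 5 only Prkci lay above the median of all genes.

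**Figure D3:**
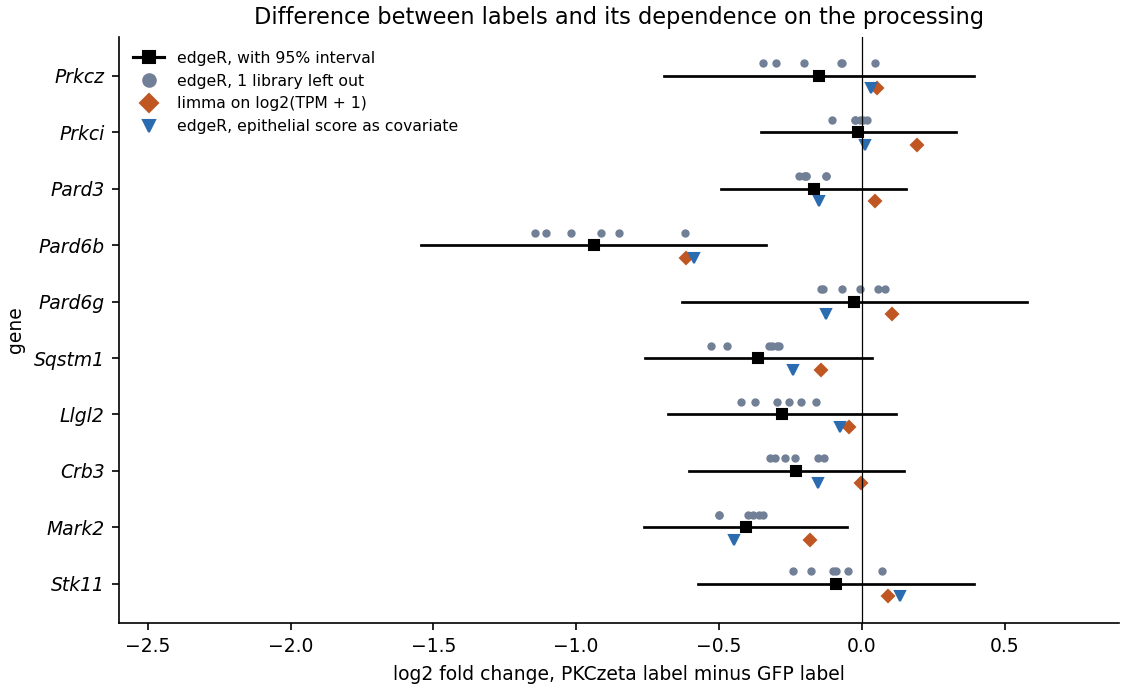
Log2 fold change, PKCzeta label minus GFP label (x axis), of each gene (y axis), with squares for edgeR and its 95% limits, grey points for fits that leave out 1 library, diamonds for limma on log2(TPM + 1) and triangles for edgeR with the epithelial score as a covariate. The intervals of Pard6b (-1.54 to -0.33) and Mark2 (-0.76 to -0.052) lie below 0 and those of the other 8 cross it.

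Cell type markers are given beside these values, and none of them passed the threshold in edgeR (smallest adjusted p 0.858). All 12 enterocyte markers had a lower mean in the zeta set and 8 of 10 general epithelial markers did, while 9 of 10 leukocyte markers had a higher one (76.0 to 140 CPM summed in the control set and 128 to 277 CPM in the zeta set). The enterocyte score, the mean deviation of the markers' log2 CPM from the mean of all libraries, was 0.68, 0.67 and 0.36 in the control set and -0.59, 0.13 and -1.25 in the zeta set. The general epithelial score overlapped, at -0.19, 0.23 and 0.30 against -0.15, -0.13 and -0.048. Fewer cells of a type and less RNA per cell cannot be told apart in such bulk samples. With the general epithelial score as a covariate 7 of 10 genes were below 0, Prkcz was at 0.031, Mark2 at -0.45 and Pard6b at -0.59, and 0 of all genes passed an adjusted p of 0.05. Mesothelial and adipocyte markers summed to 15.3 to 23.1 CPM in the control set and 4.79 to 17.5 CPM in the zeta set. Within that list the mesothelial genes Msln, Upk3b and Lrrn4 had log2 ratios of -1.61, -2.64 and -2.56. The adipocyte genes Adipoq, Plin1 and Lep had -0.29, 0.21 and 0.12, so they did not share a direction. Of the neuron and glia markers 6 of 8 had a higher mean (18.3 to 19.4 CPM summed against 17.7 to 27.8 CPM), with Gfap at 2.04. For smooth muscle 8 of 8 markers had a lower mean in the zeta set, but each overlapped between the sets. Their sum was 836 to 1810 CPM in the control set and 1194 to 1458 CPM in the zeta set. The zeta range thus lay inside the control range, and the lowest sum was in GFP replicate 1-4. The part of these cell types in the 10 genes' values was not tested.

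The libraries with extreme values differed from gene to gene. GFP replicate 1-4 had the highest value of 4 genes and GFP replicate 3-1 of 3, while PKCzeta replicates 4-1 and 4-2 had the lowest value of 4 genes each. PKCzeta replicate 4-1 was nevertheless the library with most Prkcz, and PKCzeta replicate 4-2 the one with most Prkci. Pard6b spanned 1.61 log2 units between its highest and lowest library, Prkcz 0.81 and Prkci 0.34.

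**Figure D4:**
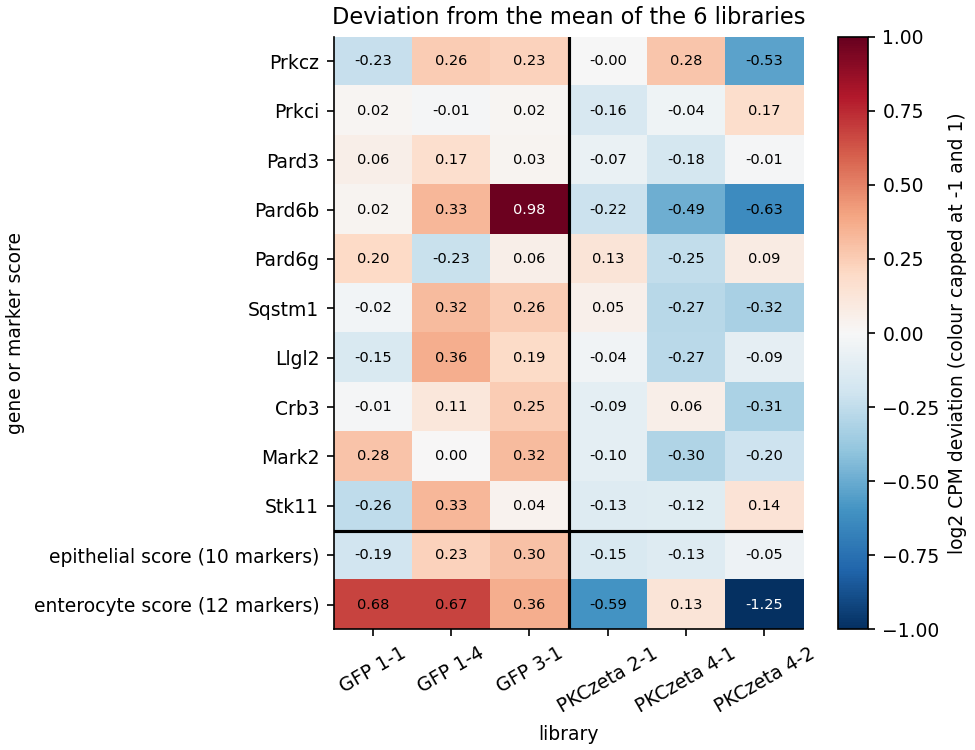
Deviation of log2 CPM from the mean of the 6 libraries (colour and printed value) for the 10 genes and for 2 marker scores (rows) in each library (columns). Pard6b is highest in GFP replicate 3-1 (0.98), and Prkcz is lowest in PKCzeta replicate 4-2 (-0.53), where the enterocyte score is lowest too (-1.25). The enterocyte score is highest in GFP replicate 1-1 (0.68), where Prkcz is at -0.23.

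Genes with the pattern closest to each aPKC were looked for among 9813 other genes with a mean of at least 5 CPM. Likeness was measured as the root mean square difference of log2 CPM deviations over the 6 libraries, and it is a description with no test. Nearest to Prkcz were Dbi (0.072), Chdh (0.084), Fcgrt (0.092), Marc2 (0.11) and Tmem219 (0.11), where the median gene was at 0.39. Dbi encodes a carrier of acyl-CoA, Chdh choline dehydrogenase and Fcgrt the neonatal Fc receptor. Nearest to Prkci were Ltn1 (0.031), Opa1 (0.042), Dpp9 (0.045), Cog3 (0.050) and Wdr11 (0.050), where the median gene was at 0.26. Opa1 acts in mitochondrial fusion and Cog3 in Golgi transport. None of the 5 genes nearest to Prkcz, nor of those nearest to Prkci, is one of the 10.

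The wider pathway was read from 7 lists with 60 genes beyond the 10, of which 58 were tested. Of these 58, 27 were lower and 31 were higher in the zeta set, with a median log2 ratio of 0.0053. In edgeR 0 of 58 passed an adjusted p of 0.05 (background 0%). At an unadjusted p under 0.05 in edgeR 0 were lower (background 3.07%) and 0 were higher (background 2.41%). The groups did not overlap in CPM for 1 of 58, Rps6kb1, which was higher (background 5.66% lower and 4.72% higher). The counts that follow leave out the 10 genes. In the aPKC and PAR complex list 3 of 5 genes were lower. The GTPase genes Cdc42 and Rac1, which activate PAR6, had log2 ratios of -0.16 (SE 0.16) and -0.17 (SE 0.17) at 636 ± 22.4 and 403 ± 49.3 CPM in the control set (SD, n = 3), and Pard6a is given above.

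In the Crumbs complex list 4 of 7 tested genes were lower. Patj, a scaffold of that complex, was at 208 ± 8.74 against 173 ± 34.0 CPM (SD, n = 3 each; log2 ratio -0.27, SE 0.18), while Lin7a and Crb2 were below 1 CPM in mean, with 0.38 (SE 0.35) and -0.50 (SE 0.58). In the Scribble list 5 of 8 were lower, with Dlg3, Scrib and Llgl1 at -0.15, -0.10 and -0.099 (SE 0.20, 0.19 and 0.21). Of the PAR-1 and LKB1 kinase list 2 of 8 were lower. Its members outside the 10 with the smallest p were Strada, the pseudokinase partner of LKB1, at 0.36 (SE 0.31), Mark4 at -0.25 (SE 0.22) and Mark1 at 0.23 (SE 0.38).

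Among kinases that LKB1 activates 3 of 9 were lower. Prkaa1, a catalytic subunit of AMPK, was at 71.2 ± 4.72 against 79.9 ± 7.99 CPM (SD, n = 3 each; log2 ratio 0.17, SE 0.15), and Nuak1 and Brsk1 had 0.50 (SE 0.34) and -0.36 (SE 0.30). Of the list around p62 and PB1 proteins 4 of 9 were lower. Map3k3, a kinase with a PB1 domain, was at 24.8 ± 3.95 against 30.8 ± 1.503 CPM (SD, n = 3 each; log2 ratio 0.31, SE 0.17), and Tfg and Traf6 had -0.22 (SE 0.17) and -0.12 (SE 0.24). Of the regulators and substrates of aPKC 6 of 12 were lower. Rps6kb1, the S6 kinase gene, was at 30.4 ± 4.16 against 37.3 ± 3.69 CPM (log2 ratio 0.29, SE 0.17), the Hippo effector gene Yap1 had 0.28 (SE 0.17) and Numb, a cell fate determinant that aPKC phosphorylates, had -0.27 (SE 0.18). The edgeR adjusted p of all genes named here from these lists outside the 10 was 0.917 or more.

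**Figure D5:**
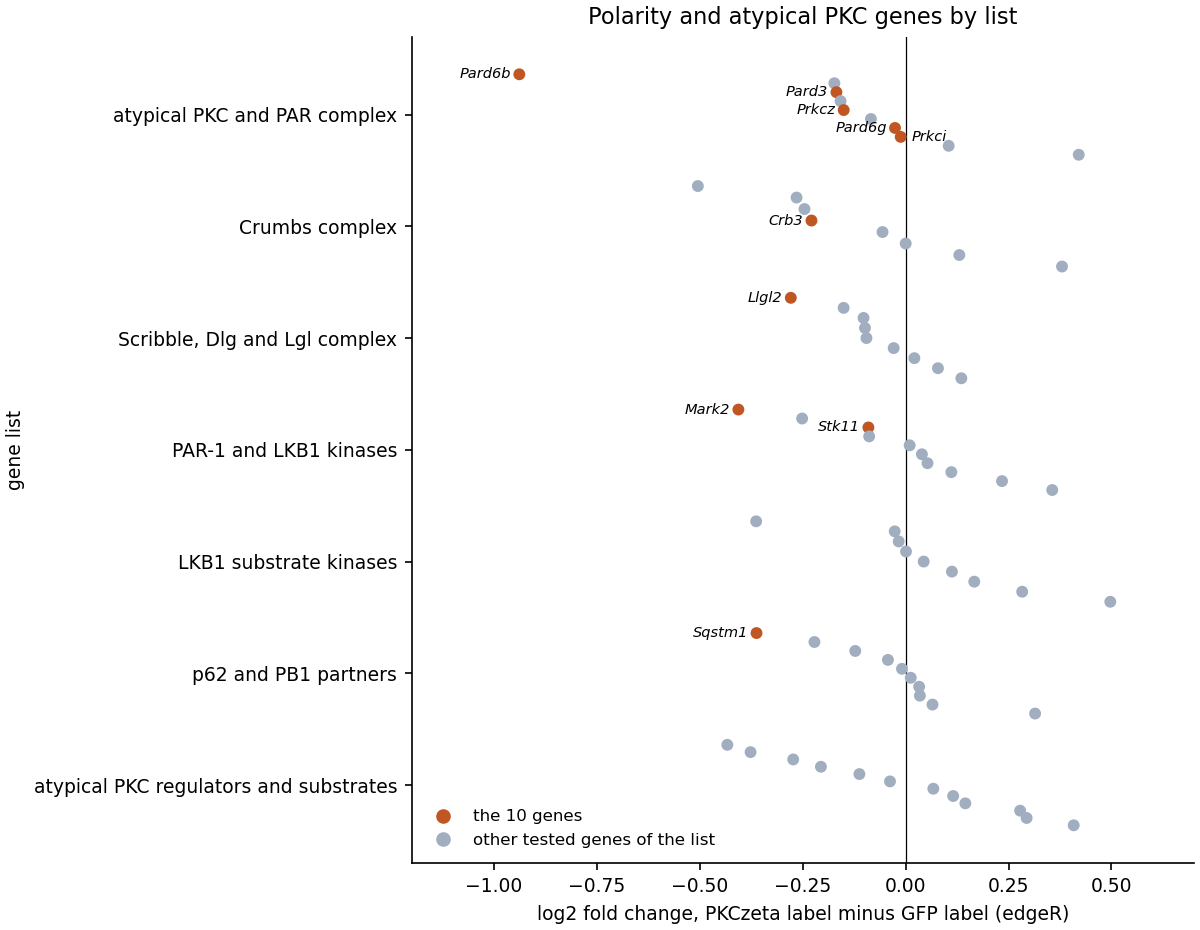
Log2 fold change in edgeR, PKCzeta label minus GFP label (x axis), of the tested genes of 7 lists (y axis), with the 10 genes in orange and others in grey. The 10 genes all lie below 0, while 31 of the 58 others lie above it.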

How the data were processed

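RNA from 6 samples of small intestine was extracted and depleted of ribosomal RNA, and stranded libraries were made, per the labels' protocols. HISAT2 and StringTie, after Trimmomatic and FastQC, and the build mm10 are named per the submitters' processing notes. The counting program and its strand setting are not given in the sources used here. Files by the authors hold read counts per gene (whole numbers, not normalised), FPKM values (deposited counts per transcript length and library size) and TPM values (the same, deposited with a sum of 1000000 per library). From these, counts were tested over the whole table with edgeR 4.0.16 in R 4.3.3 (filterByExpr, TMM, robust quasi-likelihood F test, two-sided, Benjamini-Hochberg over 18456 genes, threshold 0.05). Intervals are 95%. Log2 CPM used a prior count of 2. FPKM served only for the count to FPKM ratio and TPM for levels between genes, ratios and alternatives. Of 45777 gene IDs, 45679 matched the RefSeq table of GRCm38 used for positions, which count from 1. The script was tested on simulated data.

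The members and lists were chosen with earlier results of these data known. The named genes are the members, up to 3 other genes per list with the smallest edgeR p, and the 5 nearest in pattern to Prkcz and Prkci. Paralogs in the ratios and shares (such as Mark3 and Pard3b), genes that overlap a member and the single marker genes were named after their values were seen. Alternatives were edgeR with other scalings and filters, with an epithelial score as covariate or without ribosomal and mitochondrial rows, DESeq2 1.42.0, limma 3.58.1 (voom, and log2(TPM + 1) and log2(TPM + 0.1)), and leaving out each library. The protein-coding TPM fit, the paralog ratios and their alternatives were added after seeing the data. Replicate names are not shared between groups, so no pairing was used. GFP replicates 1-1 and 1-4 share the number before the hyphen, as do PKCzeta replicates 4-1 and 4-2, and none occurs in both groups. What that number stands for is not given, so it cannot be told apart from the label. Libraries that share it may not be independent.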

Additional observations from a re-analysis of the deposited data

How the results depend on the processing

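Over 17 alternatives, 0 of 170 fold changes of the 10 genes passed an adjusted p of 0.05, and 146 kept their sign. Pard6b (-1.15 to -0.59), Mark2 (-0.50 to -0.18), Sqstm1 (-0.53 to -0.14), Llgl2 (-0.42 to -0.044) and Crb3 (-0.32 to -0.0036) kept theirs in all 17, and for the last 4 the value nearest 0 was on log2(TPM + 1). Without GFP replicate 1-4 Llgl2 was at -0.16, without GFP replicate 1-1 at -0.42, and without PKCzeta replicate 4-2 or GFP replicate 3-1 Crb3 was at -0.13 or -0.15. The smallest adjusted p was 0.169, for Pard6b in DESeq2, which called 83 genes where edgeR called 0.

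The sign turned mostly with TPM. On log2(TPM + 1), log2(TPM + 0.1) and log2(TPM + 1) of protein-coding rows, 5 of 10 genes were lower in each. In that order Prkcz was at 0.053, 0.055 and 0.0061, Prkci at 0.19, 0.20 and 0.15, Pard3 at 0.047, 0.050 and 0.0013, Pard6g at 0.11, 0.18 and 0.090, and Stk11 at 0.093, 0.10 and 0.052, while the median of all genes was 0.14, 0.23 and 0.14. With the epithelial score as a covariate Prkcz was at 0.031, Prkci at 0.0099 and Stk11 at 0.14. The cause was not tested.

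Leaving out 1 library gave -0.35 to 0.047 for Prkcz (highest without PKCzeta replicate 4-2), -0.10 to 0.018 for Prkci (without PKCzeta 2-1), -0.14 to 0.083 for Pard6g (without PKCzeta 4-1) and -0.24 to 0.071 for Stk11 (without GFP 1-4), with 8 to 10 genes lower and 0 genes called. The log2 difference of the Prkcz to Prkci ratio ran from -0.35 to 0.17 and that of Pard3 to Pard3b from -0.23 to 0.020 (highest without PKCzeta 4-2 and GFP 1-4). The ratios gave the same sign from counts as from TPM. The lowest count of any of the 10 genes was 202 reads, in Pard6g. The part of depth in the precision of its values was not tested.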
